A study of Rattus norvegicus with 18 samples.

Results

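The genes described here code for the proteins that move calcium out of the cytosol or release it from internal stores. They were Atp2b1, Atp2b2, Atp2b3 and Atp2b4 (plasma membrane calcium pumps), Atp2a2 (the pump of the endoplasmic reticulum), Slc8a1, Slc8a2 and Slc8a3 (sodium-calcium exchangers), and the release channels Itpr1 and Ryr2. Members were found by their symbol among the 31463 rows of each count file. All 10 were present, and all 10 passed the filter on low counts that left 14398 genes for testing.

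Transcripts were counted by RNA sequencing in primary neuroglial cultures of rat cortex, prepared from newborn Wistar rats and used on day 10 in vitro. There were 18 libraries in 6 groups of 3. Control cultures received no glutamate. The Glutamate group received 100 µM glutamate, a concentration used to model excitotoxicity, the death of neurons through overactivated glutamate receptors. The label of the Memantine group names memantine alone, and the series' design text places this blocker of NMDA receptors, at 100 µM, within the glutamate model. Glutamate_vesicles, Glutamate_secret and Glutamate_BPC received material released by human glial progenitor cells, themselves derived from induced pluripotent stem cells, on the day before glutamate. The first of these had extracellular vesicles. The labels leave unsaid which of the other two had the protein fraction, the remaining one being the total secretome. RNA was taken 4 h after the model, which the study's methods count from the end of the glutamate exposure, when the cultures had been washed and returned to medium. Glial growth was limited with cytosine arabinoside according to the study's methods, so that the cultures hold neurons and glia in proportions set partly by the preparation.

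Neurons keep cytosolic calcium far below the concentration outside the cell. Plasma membrane pumps spend ATP to export calcium and bind it tightly, sodium-calcium exchangers export larger loads using the sodium gradient, and the SERCA pump encoded by Atp2a2 refills the endoplasmic reticulum. Inositol trisphosphate receptors and ryanodine receptors open the same store. In excitotoxicity, calcium enters through NMDA receptors faster than these systems remove it.

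Total counts lay between 8409574 and 17206354 per library, and between 14318 and 17458 genes had a count. Ribosomal RNA took from 3.04% to 43.0% of the counts, with the highest share in Control 1. Levels are given as CPM, the counts of a gene relative to the scaled size of its library, and the scaling factors (TMM method) ranged from 0.417 to 1.58. Control 1 and Memantine 3 stood apart from the other libraries of their groups in several members. Some of the results that rest on them are given with and without them, and the others only with all libraries. The lowest count of any member was 8, for Itpr1, and the lowest count of Atp2b1 was 1845. The counts of Itpr1 and Slc8a3, which reached down to 8 and 10, make their values the least precise. CPM values do not correct for transcript length, so that levels were compared between libraries and not between genes.

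The pump genes Atp2b2 and Atp2b4 carried the clearest difference between groups, and their RefSeq promoter windows are shown for that reason. Each window runs from 250 bases before to 50 bases after the annotated start, in build GRCr8, and is written 5′ to 3′ on the strand of the gene. The Atp2b2 window is chr4:148763604-148763903 on the minus strand. The Atp2b4 window is chr13:47758827-47759126 on the minus strand and lies inside the annotated span of the gene, not at its outer end. Capitals mark GC boxes.
Atp2b2: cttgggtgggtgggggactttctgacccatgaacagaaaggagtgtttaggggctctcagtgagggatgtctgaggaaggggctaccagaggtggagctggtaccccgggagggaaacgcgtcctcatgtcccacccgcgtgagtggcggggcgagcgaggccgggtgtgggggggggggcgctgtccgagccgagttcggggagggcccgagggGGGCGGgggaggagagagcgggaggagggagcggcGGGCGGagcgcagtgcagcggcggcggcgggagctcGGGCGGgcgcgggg
Atp2b4: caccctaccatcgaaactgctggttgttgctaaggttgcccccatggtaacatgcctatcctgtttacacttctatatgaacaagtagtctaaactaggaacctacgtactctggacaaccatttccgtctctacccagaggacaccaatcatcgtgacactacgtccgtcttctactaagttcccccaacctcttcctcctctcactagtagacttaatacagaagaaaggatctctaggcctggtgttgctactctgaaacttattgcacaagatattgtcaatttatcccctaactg
These windows differed in composition. The Atp2b2 window had 72.3% G and C, 28 CpG dinucleotides and 3 GC boxes, whereas the Atp2b4 window had 44.7% G and C, 6 CpG dinucleotides and no match to any motif searched. The median over all RefSeq promoter windows was 51.7%.

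The motifs were searched on both strands in the 9 of 10 members with a promoter entry and in 33469 promoters in all. The GC box (GGGCGG) was present in 33.1% of all promoters, the TATA box (TATAAA) in 14.2%, the AP-1 site (TGANTCA) in 7.33%, the full cyclic AMP response element (TGACGTCA) in 1.83% and its half-site (TGACG, which also lies within the full element) in 21.2%. Among the members, Atp2b1, Atp2b2, Atp2a2 and Ryr2 had 3 GC boxes each and Slc8a3 had 1. Slc8a1 held 1 half-site. The windows of Slc8a1, Slc8a2 and Slc8a3, like that of Atp2b4, did not lie at the outer end of the annotated gene. No member had a full cyclic AMP response element, an AP-1 site or a TATA box in its window, and a motif match of this kind describes letters and not a bound factor.

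Atp2b2, a fast plasma membrane pump abundant in neurons, was at 13.4, 38.2 and 33.4 CPM in Control 1, 2 and 3. In the Glutamate libraries it was at 8.40, 7.36 and 7.30 CPM. Every Glutamate library lay below every Control library, and the means were 7.69 ± 0.616 CPM (SD, n = 3) in Glutamate and 28.3 ± 13.1 CPM in Control. The log2 fold change was -1.89 ± 0.56 (SE), with an adjusted p of 0.296 by the quasi-likelihood test of edgeR.

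Atp2b4, a pump found in many cell types, was at 160, 67.7 and 60.7 CPM in Control and at 39.3, 26.1 and 36.4 CPM in Glutamate. The groups did not overlap for this gene either. Means were 96.3 ± 55.7 CPM in Control and 33.9 ± 6.92 CPM in Glutamate, a log2 fold change of -1.50 ± 0.57 (SE) with an edgeR adjusted p of 0.450. Of the 10 members, Atp2b2 and Atp2b4 were the 2 whose Glutamate libraries all lay below Control, a pattern seen in 7.76% of all genes tested.

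Atp2b3, like Atp2b2 a pump of neurons, was at 265, 35.6 and 24.0 CPM in Control and at 32.4, 9.65 and 13.7 CPM in Glutamate. The groups overlapped, and Control 1 was far above every other library of the series. The fitted difference was -2.54 ± 1.01 on the log2 scale (SE), with an adjusted p of 0.484 in edgeR, and it was -0.68 ± 0.90 without Control 1. Control 1 also had the highest share of ribosomal RNA. In a refit with that share as a covariate, Atp2b3 was still lower in Glutamate and was not called. The part of the share in the level of Atp2b3 was not itself tested.

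The fourth pump gene, Atp2b1, codes for the most widely expressed plasma membrane pump. Its levels were 3463, 266 and 138 CPM in Control and 689, 198 and 497 CPM in Glutamate. The Control mean of 1289 ± 1884 CPM therefore rested on Control 1, and no difference could be read from it. The other 2 Control libraries lay below the Glutamate mean of 461 ± 247 CPM.

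**Figure D1:**
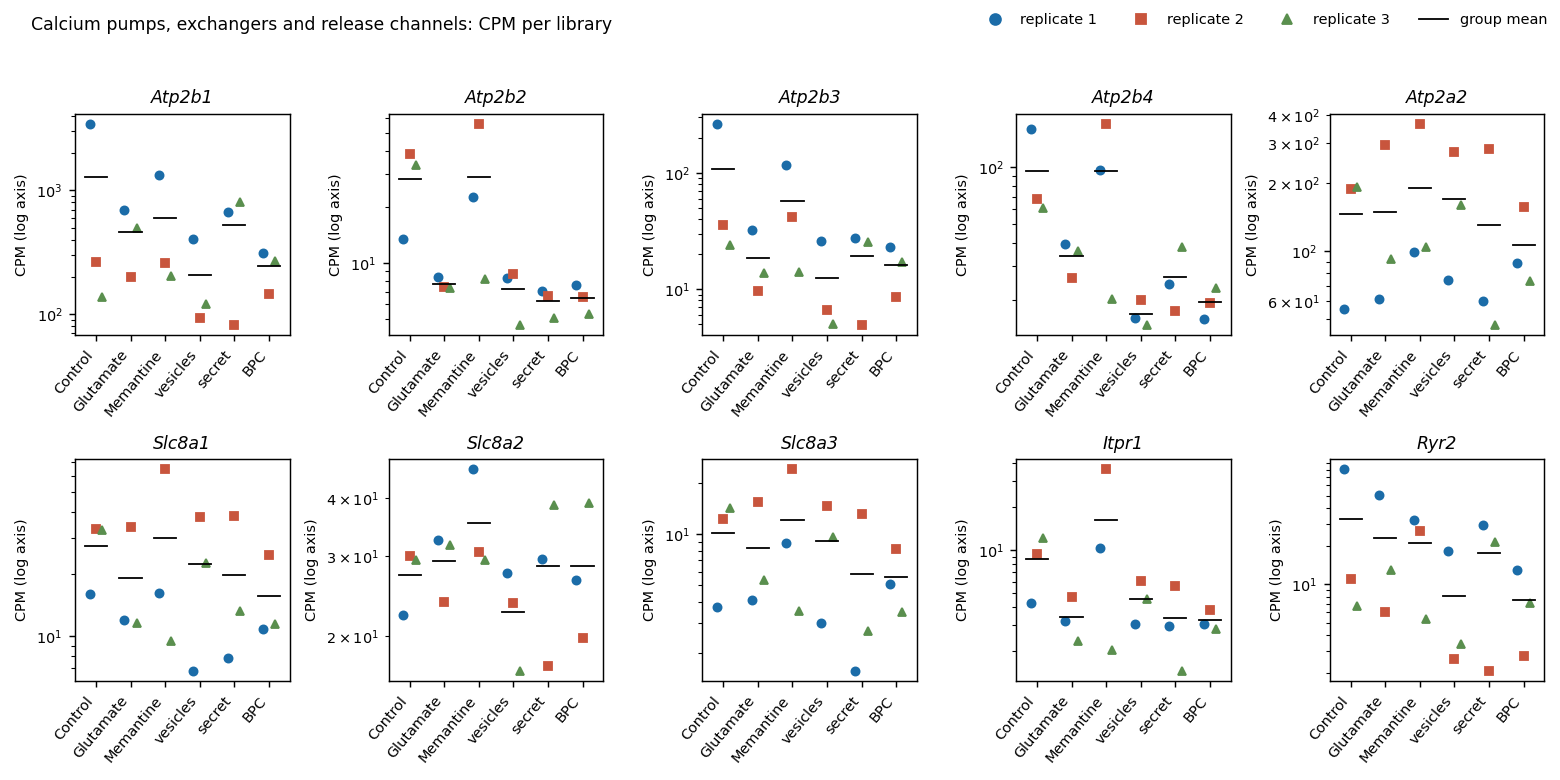
Levels of the 10 genes in each library, in CPM on a log axis, by group (vesicles, secret and BPC stand for the 3 groups that received glutamate with these preparations). Colours and shapes give the replicate number and bars the group mean, and for Atp2b2 and Atp2b4 all libraries with glutamate and no memantine lie below all Control libraries.

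None of the members outside the plasma membrane pumps reached an unadjusted p below 0.05 between Glutamate and Control. Itpr1, the main inositol trisphosphate receptor of neurons, was at 4.28, 9.42 and 12.1 CPM in Control and at 3.23, 4.70 and 2.33 CPM in Glutamate. Only Glutamate 2 lay above the lowest Control library. Ryr2, a ryanodine receptor of heart and brain, was at 80.2, 10.9 and 6.73 CPM in Control and at 50.4, 6.03 and 13.0 CPM in Glutamate, so that the groups overlapped widely.

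Atp2a2 was at 146 ± 78.1 CPM in Control and 149 ± 126 CPM in Glutamate. Its libraries ranged from 55.4 to 193 CPM and from 61.6 to 294 CPM. The spread within each group was far larger than the difference between them. The exchangers were close as well, with Slc8a2 at 27.2 ± 4.27 CPM in Control and 29.3 ± 4.79 CPM in Glutamate, Slc8a1 at 27.3 ± 9.77 and 19.1 ± 12.7 CPM, and Slc8a3 at 10.1 ± 5.61 and 8.32 ± 6.24 CPM. Slc8a2 varied least of all members, 2.75-fold between its lowest and highest library.

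In the fit across all genes, edgeR called 0 of the 10 members in Glutamate against Control at an adjusted p below 0.05, and 0% of all genes. At an unadjusted p below 0.05, 3 members (Atp2b2, Atp2b3 and Atp2b4) were lower and none was higher, against 5.97% of all genes lower. DESeq2 called 0 members and 1.61% of all genes. With edgeR's likelihood-ratio test, 0 members and 0.313% of all genes were called. The adjusted p of Atp2b2 was 0.0552 with DESeq2. The median log2 fold change of the members was -0.93, and the median over all genes was 0.08. Without Control 1, or without Glutamate 2, Atp2b2 was the 1 member left at an unadjusted p below 0.05. The share of all genes at that threshold was not counted in these fits. The count of members in these fits therefore cannot be set against a share of all genes.

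Memantine libraries differed among themselves. Atp2b2 was at 22.6 and 56.0 CPM in Memantine 1 and 2, within or above the Control range, but at 8.19 CPM in Memantine 3, within the Glutamate range. Atp2b4 followed the same division, with 97.2 and 170 CPM in Memantine 1 and 2 and 20.3 CPM in Memantine 3. Itpr1 did so as well, at 10.3 and 36.2 CPM against 2.01 CPM.

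With all libraries, these 3 members were the ones higher in Memantine than in Glutamate at an unadjusted p below 0.05, against 4.88% of all genes. The log2 fold changes were 1.91 ± 0.56 (SE) for Atp2b2, 1.50 ± 0.57 for Atp2b4 and 2.24 ± 0.77 for Itpr1, with edgeR adjusted p of 0.611, 0.688 and 0.624. None was called, and 0% of all genes were. DESeq2 called 0 members against 0.0139% of all genes, and the likelihood-ratio test called 0 members against 0%. The replicate numbers paired the libraries in this comparison, and with the number as a block 0 members and 0% of all genes were called.

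Without Memantine 3, the 3 members were called. Atp2b2 had a log2 fold change of 2.35 ± 0.47 (edgeR adjusted p = 0.0262), Atp2b4 of 1.98 ± 0.45 (adjusted p = 0.0408) and Itpr1 of 2.75 ± 0.63 (adjusted p = 0.0429). In that fit 1.73% of all 14650 genes tested were called. Without Memantine 2, in contrast, 0 members remained at an unadjusted p below 0.05, and the fold changes were 1.00, 0.79 and 0.83. The share of all genes at that threshold was not counted in the fit without Memantine 2. The comparison thus turned on which of these libraries was included.

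The other 7 members did not differ between Memantine and Glutamate at an unadjusted p below 0.05. Atp2b3 was at 116, 42.0 and 13.9 CPM in the Memantine libraries, of which only Memantine 1 and 2 lay above the Glutamate range. Atp2b1 was at 595 ± 629 CPM, Ryr2 at 21.3 ± 14.2 CPM and Atp2a2 at 190 ± 153 CPM in Memantine. The SD was close to the mean or not far below it in each. The median log2 fold change over the members was 0.59 and over all genes -0.02.

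**Figure D2:**
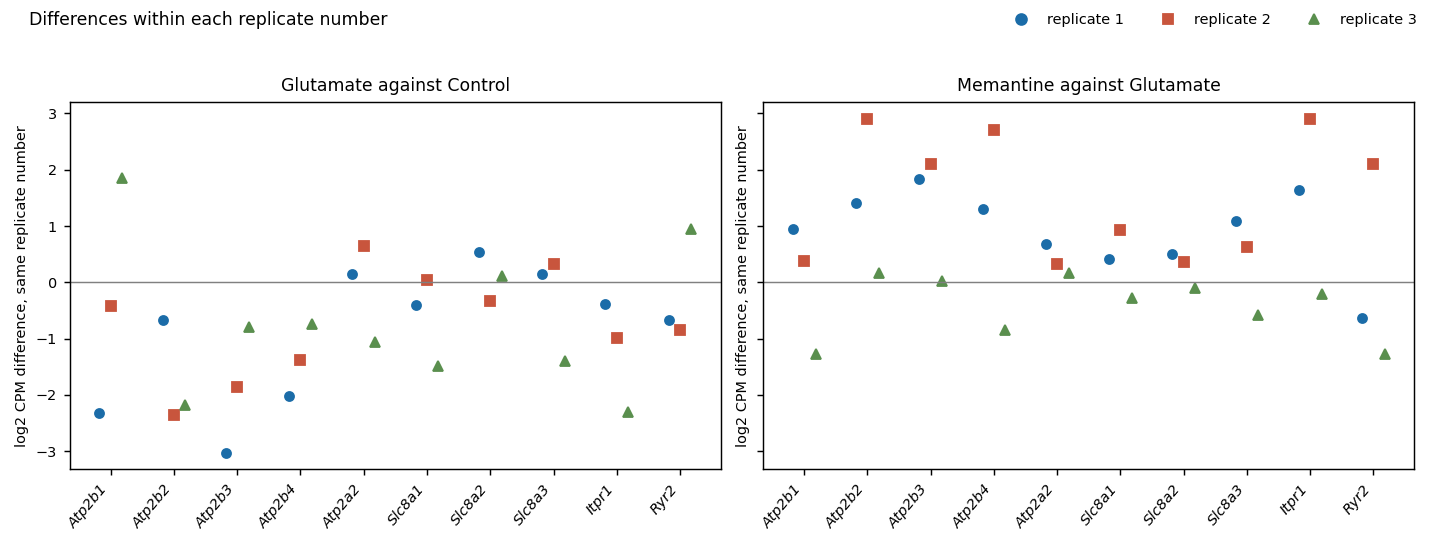
Differences in log2 CPM between libraries of the same replicate number, for Glutamate against Control (left) and Memantine against Glutamate (right), with 1 point for each number and a line at 0. Atp2b2, Atp2b3, Atp2b4 and Itpr1 lie below 0 in all 3 numbers on the left, and on the right no point of replicate 3 lies above 0.17.

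Between libraries of the same replicate number, Glutamate was below Control in 3 of 3 for 4 of the 10 members, Atp2b2, Atp2b3, Atp2b4 and Itpr1, and for 14.6% of all genes. The numbers did not pair the libraries of this comparison (lowest correlation of deviations -0.117), so that these differences are a description. For Atp2b2 the differences in log2 CPM were -0.67, -2.35 and -2.17. For Memantine against Glutamate, the differences of Atp2b2 were 1.41, 2.90 and 0.16, and those of Atp2b4 were 1.30, 2.70 and -0.84. Numbers 1 and 2 were thus positive for both genes, and number 3 was near 0 or negative. For Memantine against Control, edgeR called 0 members and 0% of all genes. At an unadjusted p below 0.05 it found 0 members and 1.12% of all genes, and DESeq2 and the likelihood-ratio test each called 0 members and 0% of all genes. Without Memantine 3, Itpr1 was the 1 member at an unadjusted p below 0.05, with a higher value in Memantine, against 2.96% of all genes in either direction. It was not called (edgeR adjusted p = 1), nor was any gene (0%).

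Atp2b2 and Atp2b4 were also below the Control range in the groups that received a preparation of glial progenitor cells before glutamate. Atp2b2 was at 8.27, 8.67 and 4.62 CPM in Glutamate_vesicles, at 7.09, 6.64 and 5.07 CPM in Glutamate_secret and at 7.61, 6.51 and 5.32 CPM in Glutamate_BPC. All 9 libraries lay below the lowest Control library. Atp2b4 was at 16.1, 19.9 and 14.7 CPM in Glutamate_vesicles, at 24.1, 17.4 and 38.0 CPM in Glutamate_secret and at 15.8, 19.3 and 23.1 CPM in Glutamate_BPC, again below every Control library.

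Over the 12 libraries with glutamate and no memantine, Atp2b2 ranged from 4.62 to 8.67 CPM with a median of 7.19 CPM. Atp2b4 ranged from 14.7 to 39.3 CPM with a median of 21.5 CPM. These 2 of 10 members were below Control in all 12 libraries, as were 5.41% of all genes tested. Itpr1 and Atp2b3 were below the lowest Control library in 8 of the 12 libraries and above the highest in 0. The 12 libraries and the comparisons with Control share the same 3 Control libraries.

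**Figure D3:**
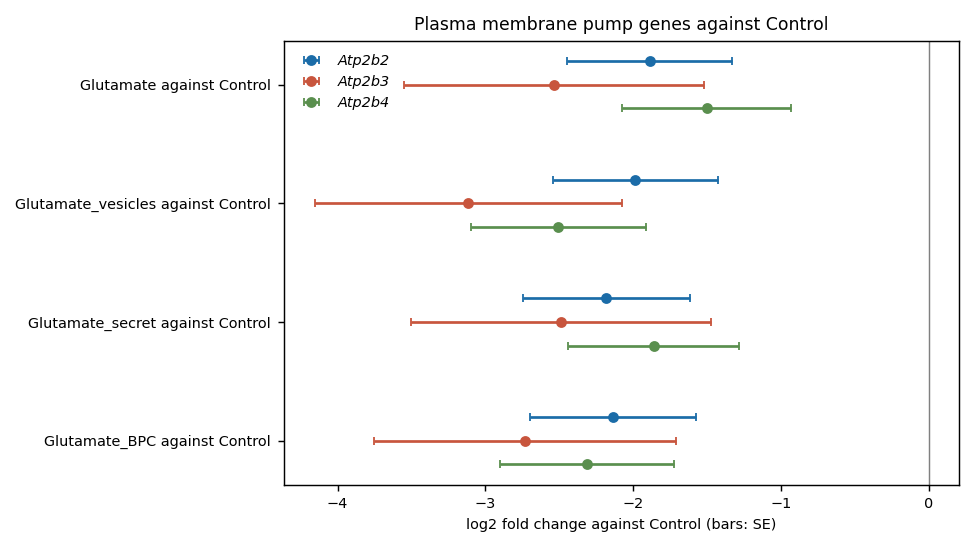
Log2 fold changes against Control of 3 plasma membrane pump genes in the 4 groups with glutamate and no memantine, with bars for the SE derived from the edgeR test and a line at 0. All 12 values lie at -1.50 or lower, the SE of Atp2b3 is the widest in each group, and all rest on the same Control libraries.

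In Glutamate_vesicles against Control, 4 members were lower at an unadjusted p below 0.05, against 7.61% of all genes lower. The log2 fold changes were -2.65 ± 1.16 for Atp2b1, -1.99 ± 0.56 for Atp2b2, -3.12 ± 1.04 for Atp2b3 and -2.51 ± 0.59 for Atp2b4. Their edgeR adjusted p were 0.387, 0.194, 0.241 and 0.173, so that 0 members were called, against 0.0139% of all genes. The likelihood-ratio test called 1 member, Atp2b4 (adjusted p = 0.0131), against 1.11% of all genes. DESeq2 called Atp2b2, Atp2b3 and Atp2b4 (adjusted p = 0.0236, 0.0335 and 0.00473), against 3.44% of all genes.

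By the limit used here (correlations above 0.1), the replicate numbers paired the Glutamate_vesicles and Control libraries, with a lowest correlation of 0.208. The block below was 1 effect per number shared by all 18 libraries. These include Glutamate and Control, whose numbers did not pair (lowest correlation -0.117), so that the calls with the block rest on an assumption not met throughout. With the number as a block, Atp2b2 fell by 2.05 ± 0.49 on the log2 scale (SE, edgeR adjusted p = 0.0346), Atp2b3 fell by 2.82 ± 0.61 (adjusted p = 0.0281) and Atp2b4 fell by 2.46 ± 0.58 (adjusted p = 0.0326). In this fit 3.74% of all genes were called. Atp2b1 was not called with the block (adjusted p = 0.118). Without Control 1, and with no block, its log2 fold change was 0.028, that of Atp2b3 was -1.26, and the members at an unadjusted p below 0.05 were 2, Atp2b2 and Atp2b4. The share of all genes at that threshold was not counted without Control 1.

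For Glutamate_secret against Control, 3 members were lower at an unadjusted p below 0.05, and 7.61% of all genes were. The log2 fold change was -2.18 ± 0.57 for Atp2b2 (edgeR adjusted p = 0.146), -2.49 ± 1.01 for Atp2b3 (adjusted p = 0.349) and -1.86 ± 0.58 for Atp2b4 (adjusted p = 0.216). The quasi-likelihood test called 0 members and 0% of all genes. Atp2b2 alone was called by DESeq2 (adjusted p = 0.0142, against 3.12% of all genes) and by the likelihood-ratio test (adjusted p = 0.0308, against 1.55%).

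Glutamate_BPC gave the same 3 members against Control, with 7.42% of all genes lower at an unadjusted p below 0.05. Log2 fold changes were -2.13 ± 0.56 for Atp2b2 (edgeR adjusted p = 0.295), -2.73 ± 1.02 for Atp2b3 (adjusted p = 0.335) and -2.31 ± 0.59 for Atp2b4 (adjusted p = 0.295). Again 0 members and 0% of all genes were called. DESeq2 called Atp2b2 and Atp2b4 (adjusted p = 0.0246 and 0.0187, against 1.78% of all genes), and the likelihood-ratio test called Atp2b4 (adjusted p = 0.0452, against 0.424%). Without Control 1, the log2 fold change of Atp2b3 was -0.63 in Glutamate_secret and -0.88 in Glutamate_BPC.

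Among the remaining members in these 3 groups, Atp2a2 ranged from 47.1 to 284 CPM and Slc8a2 from 16.8 to 39.0 CPM, around their Control ranges. Slc8a1 lay between 6.78 and 38.4 CPM, and Slc8a3 between 1.58 and 14.6 CPM. Ryr2 was at 18.2, 2.57 and 3.40 CPM in Glutamate_vesicles and at 12.9, 2.71 and 7.16 CPM in Glutamate_BPC. In both groups the first library was the highest, as it was in Control.

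Against Glutamate itself, the preparations moved no member past the threshold. The quasi-likelihood test called 0 members in each comparison, and 0% of all genes. At an unadjusted p below 0.05 there were 0 members in each, against 1.08% of all genes for Glutamate_vesicles, 0.681% for Glutamate_secret and 1.07% for Glutamate_BPC. DESeq2 called 0 members against 0.0209%, 0% and 0.00696% of all genes. The likelihood-ratio test called 0 members against 0.0139%, 0% and 0%. With the replicate block, the 2 groups alone or Glutamate_vesicles 1 left out, Glutamate_vesicles had 1 member at an unadjusted p below 0.05. Glutamate_secret had 2 with the ribosomal RNA share as a covariate, and Glutamate_BPC had 1 with the 2 groups alone. None was called, and the share of all genes at that threshold was not counted in these refits.

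Levels of the pump genes were therefore given side by side. Atp2b2 was at 7.69 ± 0.616 CPM in Glutamate, 7.19 ± 2.23 CPM in Glutamate_vesicles, 6.26 ± 1.06 CPM in Glutamate_secret and 6.48 ± 1.15 CPM in Glutamate_BPC. Atp2b4 was at 33.9 ± 6.92, 16.9 ± 2.73, 26.5 ± 10.5 and 19.4 ± 3.67 CPM in the same order. For Atp2b4 the highest values of Glutamate_vesicles and Glutamate_BPC, 19.9 and 23.1 CPM, lay below the lowest of Glutamate, 26.1 CPM. For Atp2b2 the highest value of Glutamate_secret, 7.09 CPM, lay just below the lowest of Glutamate, 7.30 CPM. Each preparation thus had 1 member wholly below Glutamate, as did 3.38% of all genes for Glutamate_vesicles, 4.24% for Glutamate_BPC and 2.01% for Glutamate_secret. None of these differences passed the test (edgeR adjusted p = 1), which does not show that the levels were equal.

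An F test of edgeR over all 6 groups called 0 members, against 0.00695% of all genes. At an unadjusted p below 0.05 there were 4 members, Atp2b2, Atp2b4, Itpr1 and Atp2b3, against 7.75% of all genes. Their adjusted p were 0.131, 0.134, 0.428 and 0.437. The likelihood-ratio form called Atp2b2, Atp2b3 and Atp2b4, against 4.08% of all genes. Ordered by group mean, Control was first or second for 8 of the 10 members, and Memantine was first for 6. The library ranges of neighbours in these orders overlapped, except for Control and Glutamate in the order of Atp2b2.

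Some members differed by replicate number across the treatments, about as often as all genes did. Atp2b1 ranged from 315 to 3463 CPM in the 6 libraries of number 1 and from 81.6 to 266 CPM in those of number 2. Its 2 ranges did not overlap, as for 13.9% of all genes tested in that direction. Atp2a2 went the other way, with 55.4 to 99.3 CPM in number 1 and 157 to 367 CPM in number 2. So did Slc8a1, at 6.78 to 16.1 CPM and 24.7 to 64.3 CPM. The opposite direction without overlap was found in 15.5% of all genes. The labels do not say what the number stands for, and the study mentions counts corrected for batch without tying a batch to a library. For its plot of cultures without glutamate, with and without vesicles, the study names day as the variation removed. Ribosomal RNA also differed between numbers, with 13.4% to 43.0% of counts in number 1 and 3.04% to 8.15% in number 2, and its part in these levels was not tested.

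Markers of neurons were measured beside Atp2b2, Atp2b4 and Itpr1. The summed level of 12 neuronal markers was 2255 to 3039 CPM in Control, 683 to 1344 CPM in Glutamate, 676 to 1044 CPM in Glutamate_vesicles, 579 to 1257 CPM in Glutamate_secret and 793 to 1216 CPM in Glutamate_BPC. In Memantine 1, 2 and 3 it was 3781, 2492 and 743 CPM. Memantine 3 was thus at the level of the glutamate libraries, as it was for Atp2b2, Atp2b4 and Itpr1. All 12 markers had lower means in Glutamate than in Control, with a median log2 fold change of -1.42, of which 7 had an unadjusted p below 0.05 and 0 were called. None of the markers was at 0 in any library. In bulk samples, fewer neurons and less of these RNAs per neuron cannot be told apart.

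Markers of other cells were measured in the same libraries. The 8 astrocyte markers summed to 2954 to 6399 CPM in Control and 5676 to 11335 CPM in Glutamate. They were 3713 to 10967 CPM in Memantine, where Memantine 3 was the highest. In Glutamate_vesicles, Glutamate_secret and Glutamate_BPC they were 3478 to 7107, 5820 to 8924 and 7518 to 13235 CPM. Oligodendrocyte markers (9 genes) summed to 379 to 677 CPM in Control, 742 to 984 CPM in Glutamate and 379 to 792 CPM in Memantine. They reached 886 to 1409 CPM in Glutamate_vesicles, 686 to 1321 CPM in Glutamate_secret and 753 to 1173 CPM in Glutamate_BPC, so that all libraries with glutamate and no memantine were above Control. Microglial markers (7 genes) summed to 30.6 to 67.9 CPM in Control, 69.8 to 210 CPM in Glutamate, 33.5 to 95.9 CPM in Glutamate_vesicles, 50.6 to 383 CPM in Glutamate_secret and 71.5 to 261 CPM in Glutamate_BPC. In Memantine 1, 2 and 3 they were 17.3, 28.7 and 238 CPM, so that Memantine 3 stood apart here too. Endothelial markers reached at most 4.15 CPM, with no row used for Cldn5, and the markers of fibroblasts and mural cells at most 19.5 CPM, with Rgs5 at 0 in 16 libraries and Dcn in 12. The part of cell composition in the levels of the members was not tested.

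**Figure D4:**
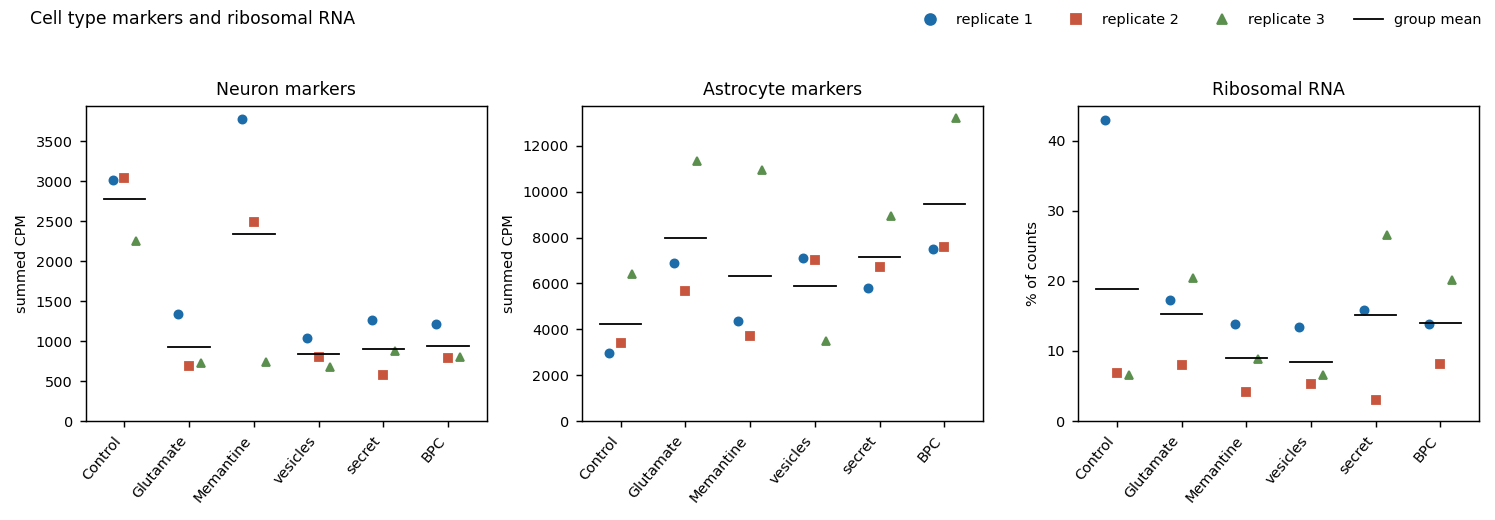
Summed CPM of 12 neuronal and 8 astrocyte markers and the percentage of counts from ribosomal RNA in each library, by group, with the replicate number by colour and shape and the group mean as a bar. Neuronal markers lie at 2255 CPM or above in Control, Memantine 1 and Memantine 2 and at 1344 CPM or below elsewhere, and Control 1 has the highest share of ribosomal RNA.

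Beyond these members, a list of 53 other genes of calcium handling was examined (store-operated entry, the mitochondrial uniporter, regulators of the release channels, and further pumps and exchangers). Rows were found for 51, and 42 were tested. In Glutamate against Control, 1 of the 42 was higher and 4 were lower at an unadjusted p below 0.05, and 0 were called. Over all genes 2.13% were higher and 5.97% lower at that threshold. The median log2 fold change of the list was -0.15, compared with -0.93 for the 10 members.

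The smallest p belonged to Orai2, a pore subunit of store-operated calcium channels, at 39.4 ± 14.9 CPM in Control and 8.77 ± 0.566 CPM in Glutamate (log2 fold change -2.16 ± 0.56, edgeR adjusted p = 0.282). Fkbp1b, a protein that binds ryanodine receptors, was next, at 21.0 ± 9.57 and 5.51 ± 2.81 CPM (log2 fold change -1.93 ± 0.60, adjusted p = 0.329). In Memantine against Glutamate, 3 of the 42 genes were higher at an unadjusted p below 0.05, against 4.88% of all genes, and none was lower. Orai2 was at 27.7 ± 19.9 CPM in Memantine (log2 fold change 1.66 ± 0.55, adjusted p = 0.621), and Slc24a4, a potassium-dependent sodium-calcium exchanger, was at 4.41 ± 2.66 CPM against 1.16 ± 0.119 CPM (1.92 ± 0.69, adjusted p = 0.634).

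Each preparation against Control gave 1 of the 42 genes higher and 6 lower at an unadjusted p below 0.05, with 0 called. The shares of all genes were 3.99% higher and 7.61% lower for Glutamate_vesicles, 4.14% and 7.61% for Glutamate_secret, and 3.92% and 7.42% for Glutamate_BPC. Orai2 was among the 2 smallest p in all 3 comparisons, at 7.29 ± 0.877 CPM in Glutamate_vesicles, 9.23 ± 1.81 CPM in Glutamate_secret and 6.77 ± 1.43 CPM in Glutamate_BPC. Casq1, a calcium-binding protein of the reticulum, was the gene with higher values, at 0.640 ± 0.147 CPM in Control, 2.09 ± 0.713 CPM in Glutamate alone and 2.05 ± 0.230, 3.09 ± 1.22 and 2.57 ± 0.773 CPM in the preparations. It was the 1 gene of the list higher in Glutamate against Control, and also the 1 higher in Memantine against Control at that threshold, at 1.89 ± 1.30 CPM, where 0.576% of all genes were higher. Micu3, a regulator of mitochondrial calcium uptake, was at 30.8 ± 47.5 CPM in Control and 2.99 ± 0.391 CPM in Glutamate_vesicles, with a Control SD larger than its mean. Against Glutamate, 0 genes of the list passed an unadjusted p of 0.05 in any preparation. The smallest p there belonged to Itpr3 and Asph for Glutamate_vesicles, Jph2 and Fkbp1a for Glutamate_secret, and Homer1 and Slc24a1 for Glutamate_BPC, all with an edgeR adjusted p of 1.

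Members also varied in how closely they followed their common average across libraries. Each was standardised on the log2 CPM scale, and the 10 were averaged. Over the 18 libraries, Pearson's r with this average was 0.93 for Atp2b4, 0.91 for Atp2b2 and 0.82 for Itpr1, and it was lowest for Atp2a2, at 0.29. The genes outside the list with the most similar pattern were Chd3 (r = 0.969), Cnksr2 (r = 0.962), Map3k9 (r = 0.960), Adarb1 (r = 0.953) and LOC100125362 (r = 0.952). The r of a member is raised by its own part in the average, which the genes outside the list do not have. All these values are descriptions, since the points share libraries, groups, replicate numbers and depth.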

How the data were processed

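Reads had been trimmed by the authors (Trimmomatic, Cutadapt) and assigned to rat transcripts by Salmon, with sums per gene from tximport. The submitters' processing notes also name STAR and build rn6, and their versions are not given in the sources used here. Deposited values were expected counts, that is, estimated counts that need not be whole, with no scaling between libraries. They were rounded to whole numbers. The strand setting of the counting was not stated, so overlapping genes can share counts. The study's methods describe experiments on cultures of unrelated cells, while the labels tie no library to a culture or day. If libraries of a group shared a culture, p-values would measure technical spread only.

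Genes passing filterByExpr (minimum count 10, minimum total 15) were tested in R 4.3.3 (edgeR 4.0.16), using scaling by the trimmed mean of M values, 1 mean per group over all 18 libraries, the two-sided quasi-likelihood test and Benjamini-Hochberg adjustment over 14398 genes, with calls below 0.05. The test design had been written for whole counts. The SE of an edgeR fold change was its absolute value divided by the square root of the test statistic. Log2 CPM used a prior count of 2. There were 9 comparisons and an F test. Alternatives were the likelihood-ratio test, DESeq2 1.42.0, other scaling and filters, ribosomal RNA rows (78, by RefSeq symbols, matched by 90.5% of the tested genes) left out or as a covariate, a replicate block, and each library left out. Numbers were taken to pair libraries where the deviations of all 3 pairs correlated above 0.1. The lowest correlation was 0.573 for Memantine and 0.445 and 0.453 for Glutamate_secret and Glutamate_BPC, each against Glutamate, and 0.208 for Glutamate_vesicles against Control. No other comparison met this limit. No 2 libraries were identical (highest r 0.986). All 10 members are named. From the other calcium genes, those with the 2 smallest p in a comparison are named, and the 5 genes most like the members' mean. Members and lists were chosen with earlier results of these data known.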

Additional observations from a re-analysis of the deposited data

How the results depend on the processing

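Over 16 log2 fold changes with an unadjusted p below 0.05, 224 refits under the alternatives kept the direction in 223 and gave another call in 18. The reversal was Atp2b1 in Glutamate_vesicles against Control, which ranged from -3.57 without Glutamate_vesicles 1 to 0.028 without Control 1. The members called in Glutamate_vesicles against Control were 0 in the reported fit, 1 by the likelihood-ratio test, 3 by DESeq2 and 3 with the replicate block. In Glutamate_secret against Control they were 1, always Atp2b2, by the likelihood-ratio test, by DESeq2, with the block and with the ribosomal RNA share as a covariate. In Glutamate_BPC against Control they were 1 by the likelihood-ratio test, 1 with the block and 2 by DESeq2. In the F test over all groups they were 3 by the likelihood-ratio test, with the block and with the covariate. The block and the covariate could also call more genes in all. In Glutamate against Control they called 166 and 32 of 14398 genes, against 0 in the reported fit. Counts of members given here without a share of all genes are therefore not read as particular to the members. Leaving out 1 library at a time gave 0 to 3 members called in Memantine against Glutamate and 0 to 3 in the F test, with 3 in each case without Memantine 3. The cause of these differences was not tested. The other counts of members called, Glutamate against Control among them, stayed at 0 under every alternative run. The replicate block changed no call of a member beyond those named here. In Glutamate_secret and Glutamate_BPC against Control the libraries share only a number. Another scaling moved the median of all genes by at most 0.03. Counts down to 8 limit what can be seen for Itpr1 and Slc8a3.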
